A study of Homo sapiens with 2 samples.

Results

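Respiratory chain genes of both genomes were examined in the established human neuroblastoma line SK-N-BE(2)-C, in a version that carries a doxycycline-inducible gene for HRASV12, a permanently active mutant of the small GTPase HRAS. The group called HRASV12 induced is 1 library of 666 cells that were kept with 100 ng/ml doxycycline over 13 days. The group called uninduced control is 1 library of 956 cells of the same line left without doxycycline, so both are taken to carry the construct. The labels do not say whether the line is a clone, and the control had no doxycycline, so effects of the drug itself and of HRASV12 cannot be told apart. Members were the genes whose symbols mark them as subunits of complexes I, III, IV or V and that reached 10 CPM in either library, where CPM is a gene's summed counts scaled by the total of the library. Of 36027 genes in the table, 149 carried such symbols and 87 were members, 13 of them encoded by mitochondrial DNA and 74 by nuclear genes. The other 62 stayed under 10 CPM in both libraries and comprised 51 pseudogenes, 6 other protein-coding genes, 3 antisense or divergent noncoding RNAs and 2 read-through transcripts. Just inside the limit lay NDUFA4L2, at 4.70 CPM in induced and 19.1 CPM in control cells, and NDUFV2, at 42.0 CPM in induced and 33.9 CPM in control cells. Just outside lay NDUFA6-DT, at 4.03 CPM in induced and 4.57 CPM in control cells, and UQCRHL, at 2.20 CPM in induced and 3.59 CPM in control cells. Subunits with other symbols, such as CYC1 of complex III, were not members.

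The respiratory chain passes electrons from NADH and succinate to oxygen in the inner mitochondrial membrane and uses the resulting proton gradient to make ATP. Complex I oxidises NADH, complex III passes electrons from ubiquinol to cytochrome c, complex IV reduces oxygen, and complex V is the ATP synthase. Complex II, which oxidises succinate, is made of nuclear-encoded proteins only. The mitochondrial genome supplies the hydrophobic core subunits of complexes I, III, IV and V and is transcribed by its own polymerase into long precursors that are cut into messenger, ribosomal and transfer RNAs. All other subunits are transcribed in the nucleus, translated in the cytosol and imported, so each of these complexes joins the products of separately controlled genomes. SK-N-BE(2)-C is known to carry an amplified MYCN gene, and proteins of the MYC family are known to activate nuclear genes for mitochondria.

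The 3 mitochondrially encoded members that differed most between the libraries were MT-ATP8, MT-ND3 and MT-ND4L, which are also the 3 shortest, and their sequences are shown because the results below turn on them. They are the plus strand of GRCh38 as given by GENCODE 29. MT-ATP8, a subunit of the proton channel part of ATP synthase, lies at chrM:8366-8572 and spans 207 bases. Its last 46 bases, in capitals, are also the start of MT-ATP6. MT-ND4L, a membrane subunit of complex I, lies at chrM:10470-10766 and spans 297 bases, of which the last 7, in capitals, are shared with MT-ND4. MT-ND3, another membrane subunit of complex I, lies at chrM:10059-10404, spans 346 bases and shares none with a neighbouring protein-coding gene; its first 300 bases, chrM:10059-10358, are shown. Reads from a shared stretch can be given to either gene or lost, and MT-ATP8 with MT-ATP6 and MT-ND4L with MT-ND4 are known to sit on common transcripts, so the levels of these 4 genes are uncertain.
MT-ATP8: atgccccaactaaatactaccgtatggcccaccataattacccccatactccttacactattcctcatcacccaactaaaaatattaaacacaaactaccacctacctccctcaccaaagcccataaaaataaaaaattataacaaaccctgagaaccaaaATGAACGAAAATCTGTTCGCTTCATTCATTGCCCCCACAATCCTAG
MT-ND4L: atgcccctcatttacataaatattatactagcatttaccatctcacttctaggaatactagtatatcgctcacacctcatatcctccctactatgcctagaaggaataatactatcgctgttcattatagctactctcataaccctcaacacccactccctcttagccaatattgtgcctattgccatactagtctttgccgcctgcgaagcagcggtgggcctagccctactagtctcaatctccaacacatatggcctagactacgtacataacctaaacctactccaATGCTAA
MT-ND3: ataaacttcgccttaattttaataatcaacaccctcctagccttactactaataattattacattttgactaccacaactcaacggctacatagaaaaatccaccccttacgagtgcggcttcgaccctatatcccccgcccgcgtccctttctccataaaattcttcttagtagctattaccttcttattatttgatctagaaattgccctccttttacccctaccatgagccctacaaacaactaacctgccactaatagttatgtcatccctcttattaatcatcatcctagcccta

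For the nuclear-encoded members, promoters from 250 bases before to 50 bases after the gene start were read from RefSeq (GRCh38.p14), where 59 of 74 matched by symbol. Short motifs of transcription factors known for controlling respiratory genes were searched on both strands. The NRF1 motif CGCANGCG was found in 19 of 59 promoters (32.2%), against 10.5% of 27167 promoters in the table. The motif CCGGAAG, bound by ETS factors such as the respiratory gene regulator GABPA, was found in 17 (28.8%), against 10.6% of all. The YY1 motif AANATGGCG was found in 15 (25.4%), against 3.38% of all, and at least 1 of the 3 motifs was found in 36 (61.0%), against 21.0% of all. The ETS and YY1 motifs can overlap by the letters AAG. The 27167 promoters were not limited to genes measured here or matched to the members by GC content. The part of either in the higher shares was not tested. A match is a description of these letters and shows no binding. Shown with motif matches in capitals are the promoters of UQCR10 and NDUFS3, which had the lowest log2 ratios of induced over control in complexes III and I, and of UQCR11, which had the highest in complex III. Motif matches therefore stood in promoters of members at both ends of the range. UQCR10 lies on the plus strand at chr22:29767119-29767418, with an NRF1 and a YY1 match. NDUFS3 lies on the plus strand at chr11:47578824-47579123, with ETS and YY1 matches. UQCR11 lies on the minus strand at chr19:1605413-1605712, with NRF1 and ETS matches.
UQCR10: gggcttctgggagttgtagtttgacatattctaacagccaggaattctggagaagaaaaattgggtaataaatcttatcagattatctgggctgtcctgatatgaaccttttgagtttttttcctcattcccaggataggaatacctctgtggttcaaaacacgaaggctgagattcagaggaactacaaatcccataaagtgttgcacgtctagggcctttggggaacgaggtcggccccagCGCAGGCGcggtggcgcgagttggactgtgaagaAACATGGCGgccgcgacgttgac
NDUFS3: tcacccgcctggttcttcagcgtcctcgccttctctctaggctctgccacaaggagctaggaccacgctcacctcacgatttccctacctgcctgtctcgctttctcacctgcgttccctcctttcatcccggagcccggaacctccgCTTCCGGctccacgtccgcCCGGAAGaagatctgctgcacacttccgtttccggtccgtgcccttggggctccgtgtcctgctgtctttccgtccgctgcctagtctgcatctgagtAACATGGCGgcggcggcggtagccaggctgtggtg
UQCR11: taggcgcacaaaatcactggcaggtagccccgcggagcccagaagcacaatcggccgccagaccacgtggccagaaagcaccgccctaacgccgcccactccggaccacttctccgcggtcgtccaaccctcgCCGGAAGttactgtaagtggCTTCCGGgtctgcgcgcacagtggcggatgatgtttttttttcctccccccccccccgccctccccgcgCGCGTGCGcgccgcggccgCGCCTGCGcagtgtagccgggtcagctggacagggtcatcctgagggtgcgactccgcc

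The libraries held 80359736 counts in induced cells, with a median of 111582 per cell, and 95350640 counts in control cells, with a median of 85821 per cell. No cell barcode was shared between them. With 1 library per group there is no replicate check and no test, and every difference describes these libraries alone. For levels and ratios the 95% intervals cover counting error only. For shares of cells they cover only the drawing of cells from 1 library, taken as independent. HRAS had a level of 161 CPM in induced and 109 CPM in control cells, a count that does not tell the transgene from the native gene. Of 10 markers of adrenergic neuroblastoma 9 reached 10 CPM in both libraries, and the summed level of the 10 was 3951 CPM in induced and 4165 CPM in control cells. Single markers differed in both directions. CHGA stood at 446 CPM in induced and 1004 CPM in control cells, and DBH and HAND2 were also lower in induced cells. STMN2 stood at 1283 CPM in induced and 983 CPM in control cells, and PHOX2A and ISL1 were also higher in induced cells. CHGB and GATA3 were near level. MYCN stood at 397 CPM in induced and 480 CPM in control cells. No immune or erythroid marker reached 10 CPM in either library, while 1 of 4 fibroblast and 2 of 5 endothelial markers did so in at least 1 library.

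Mitochondrially encoded members were lower in the induced library, while nuclear-encoded members stayed close to level. Mitochondrially encoded members took 8.23% of all counts in induced and 10.9% in control cells, a ratio of 0.755, and all 13 genes were lower in the induced library. Nuclear-encoded members took 3.79% of counts in induced and 3.63% in control cells, a ratio of 1.04. On the scale of the log2 ratio of induced over control with a pseudocount of 1 CPM, the median was -0.45 for the 13 mitochondrially encoded and 0.04 for the 74 nuclear-encoded members, beside -0.04 for all 9017 genes that reached 10 CPM in either library. The nuclear-encoded median had no stable sign, being -0.01 with totals without mitochondrially encoded genes and -0.03 with the mean of per-cell CPM. All 13 mitochondrially encoded genes stayed below 0 in 15 of 17 alternatives, the exceptions being those that choose cells by these genes. Among the 15, other pseudocounts and other filters on gene level could not change a sign. Levels are shares of a library, so less mitochondrial RNA and more of other RNA cannot be told apart. A call means a difference of at least 1.5-fold on this scale. Among all 9017 genes 10.3% were higher and 7.73% lower by that size. Of the 13 mitochondrially encoded members 0 were higher and 3 lower by that size, and of the 74 nuclear-encoded members 0 were higher and 1 lower. The nuclear-encoded members also stayed close together, with 73 of 74 (98.6%) within 0.5 of 0 on the log2 scale and 63 (85.1%) within 0.25, against 75.6% and 44.9% of all 9017 genes. Among the 3285 genes that reached 50 CPM in either library these shares were 75.5% and 45.1%. Those genes were not matched to the members by level, so the part of abundance in the narrow spread was not tested. Other mitochondrial lists, given below, also had few genes past 1.5-fold, such as 1 of 72 for the mitochondrial ribosome.

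**Figure D1:**
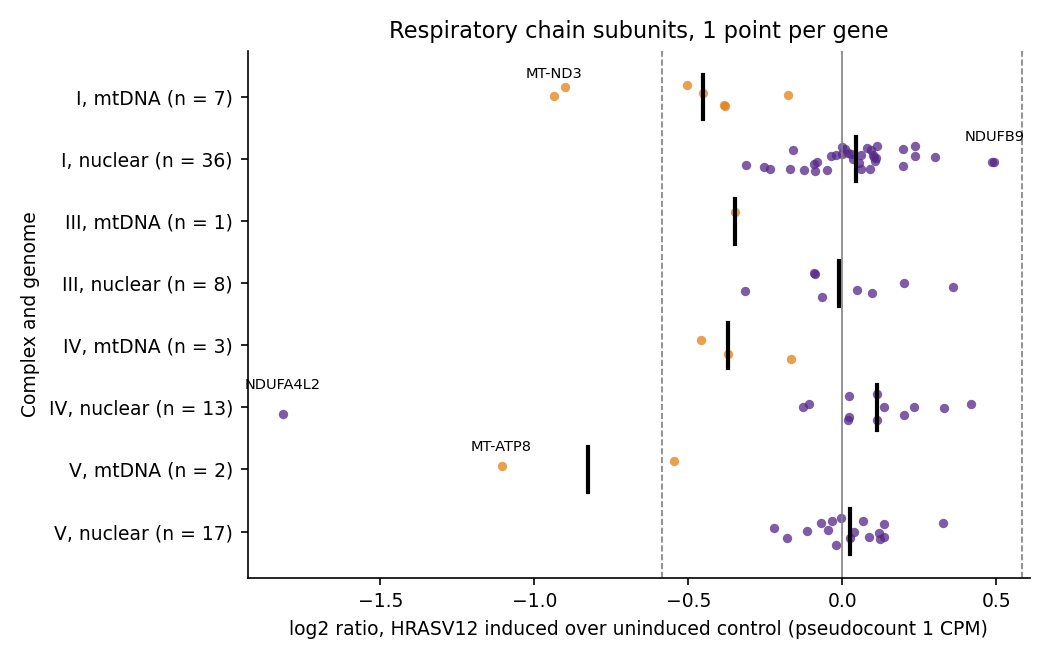
Log2 ratio of HRASV12 induced over uninduced control for each member (1 point per gene), by complex and genome, with medians as black bars and dashed lines at 1.5-fold in either direction. All 13 mitochondrially encoded members (orange) lie below 0, while 46 of 74 nuclear-encoded members (purple) lie above it; points are spread vertically for legibility only.

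Complex I takes 7 of its membrane subunits from the mitochondrial genome. Summed over these 7, the level was 16707 CPM in induced and 24359 CPM in control cells, with a median log2 ratio of -0.45. MT-ND3 stood at 3913 CPM in induced and 7487 CPM in control cells, a ratio of 0.523 (exact interval 0.521 to 0.525). MT-ND4L stood at 191 CPM in induced and 357 CPM in control cells, a ratio of 0.535 (0.525 to 0.545). These were the 2 complex I genes of the mitochondrial genome that passed 1.5-fold. MT-ND2 stood at 1349 CPM in induced and 1913 CPM in control cells. MT-ND5 stood at 546 CPM in induced and 747 CPM in control cells, and MT-ND1 at 2959 CPM in induced and 3862 CPM in control cells. These 3 had log2 ratios between -0.50 and -0.38. MT-ND4 stood at 7251 CPM in induced and 9432 CPM in control cells. MT-ND6, the member transcribed from the opposite strand to all the others, came close to level, at 498 CPM in induced and 562 CPM in control cells.

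The 36 nuclear-encoded members of complex I summed to 10926 CPM in induced and 10545 CPM in control cells, with a median log2 ratio of 0.04. For the 7 nuclear-encoded core subunits, which carry the flavin and the iron-sulfur clusters of electron transfer or hold them in place, the median was 0.03, and for the other 29 subunits it was 0.05. None of the 36 passed 1.5-fold, and 23 lay above 0. NDUFB9, an accessory subunit of the membrane arm, was highest, at 644 CPM in induced and 457 CPM in control cells, a log2 ratio of 0.49. NDUFA7, an accessory subunit of the peripheral arm, followed at 52.5 CPM in induced and 37.2 CPM in control cells, also with 0.49. The core subunits NDUFS3 and NDUFS1 were lowest. NDUFS3 stood at 89.3 CPM in induced and 111 CPM in control cells (log2 ratio -0.31), and NDUFS1, which holds iron-sulfur clusters, at 99.7 CPM in induced and 119 CPM in control cells (-0.25). NDUFV2, another core iron-sulfur subunit, was on the other side, at 42.0 CPM in induced and 33.9 CPM in control cells (0.30), so core subunits lay at both ends. Among the accessory subunits NDUFS6, which is needed for a late step of assembly, was lowest, at 477 CPM in induced and 562 CPM in control cells (-0.23). NDUFC2, a subunit of the membrane arm, stood at 651 CPM in induced and 552 CPM in control cells (0.24). NDUFB11, another subunit of the membrane arm, stood at 743 CPM in induced and 687 CPM in control cells (0.11).

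Complex III takes cytochrome b, MT-CYB, from the mitochondrial genome, which stood at 6747 CPM in induced and 8578 CPM in control cells, a ratio of 0.786 (0.784 to 0.789). Its 8 nuclear-encoded members summed to 4034 CPM in induced and 4069 CPM in control cells, with a median log2 ratio of -0.01. CYC1, the cytochrome c1 of this complex, is not among them because of its symbol. It stood at 214 CPM in induced and 216 CPM in control cells. The small subunits UQCR11 and UQCR10 differed in opposite directions. UQCR11 stood at 379 CPM in induced and 296 CPM in control cells (log2 ratio 0.36), and UQCR10 at 581 CPM in induced and 723 CPM in control cells (-0.32). UQCRFS1, the Rieske iron-sulfur protein, was near level at 249 CPM in induced and 241 CPM in control cells. The core proteins UQCRC1 and UQCRC2, which carry no redox centre, had log2 ratios of -0.09 and 0.10. UQCRQ, which binds near cytochrome b, stood at 846 CPM in induced and 736 CPM in control cells (0.20). UQCRH, a hinge protein with a near-identical copy UQCRHL that may share its reads, stood at 1043 CPM in induced and 1113 CPM in control cells.

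Complex IV takes its 3 catalytic core subunits from the mitochondrial genome, and these were spread. MT-CO1, which holds the site of oxygen reduction, was the nearest to level of all 13, at 14274 CPM in induced and 16034 CPM in control cells, a ratio of 0.890 (0.888 to 0.892). MT-CO2, which takes electrons from cytochrome c, stood at 23449 CPM in induced and 30339 CPM in control cells, a ratio of 0.773. MT-CO3 stood at 13991 CPM in induced and 19221 CPM in control cells, a ratio of 0.728. Among the 13 nuclear-encoded members the median log2 ratio was 0.11, with 10 above 0. COX6A1 stood at 661 CPM in induced and 494 CPM in control cells (0.42), and COX7A2L, which helps join complexes III and IV into supercomplexes, at 564 CPM in induced and 448 CPM in control cells (0.33). COX8A stood at 679 CPM in induced and 741 CPM in control cells (-0.13). COX5A, a subunit on the matrix side, stood at 1061 CPM in induced and 922 CPM in control cells (0.20), and COX7A2, the common form of its subunit, at 969 CPM in induced and 824 CPM in control cells (0.23). COX7B was near level, at 1359 CPM in induced and 1339 CPM in control cells.

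Complex V takes MT-ATP6 and MT-ATP8 from the mitochondrial genome. MT-ATP8 had the lowest ratio of the 13, at 82.7 CPM in induced and 179 CPM in control cells, a ratio of 0.462 (0.449 to 0.475). MT-ATP6, the channel subunit through which protons pass, stood at 7009 CPM in induced and 10236 CPM in control cells, a ratio of 0.685. The 17 nuclear-encoded members summed to 11218 CPM in induced and 10782 CPM in control cells, with a median log2 ratio of 0.03. Among the 5 subunits of the catalytic F1 head the median was 0.12, with ATP5F1E at 2124 CPM in induced and 1933 CPM in control cells and ATP5F1A, the alpha subunit, lowest at 250 CPM in induced and 291 CPM in control cells (-0.22). ATP5F1C, the gamma subunit that turns inside the head, stood at 474 CPM in induced and 432 CPM in control cells (0.14), and ATP5PF, a subunit of the stalk that holds the head, at 517 CPM in induced and 534 CPM in control cells (-0.05). ATP5MD, a small subunit linked to dimers of the synthase, was highest of the complex, at 1095 CPM in induced and 873 CPM in control cells (0.33). ATP5MPL, a small subunit of the membrane part, lay near the low end, at 366 CPM in induced and 415 CPM in control cells (-0.18). ATP5MC1, ATP5MC2 and ATP5MC3 encode the same mature ring subunit of the proton rotor. Their log2 ratios were -0.03, -0.02 and -0.07.

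**Figure D2:**
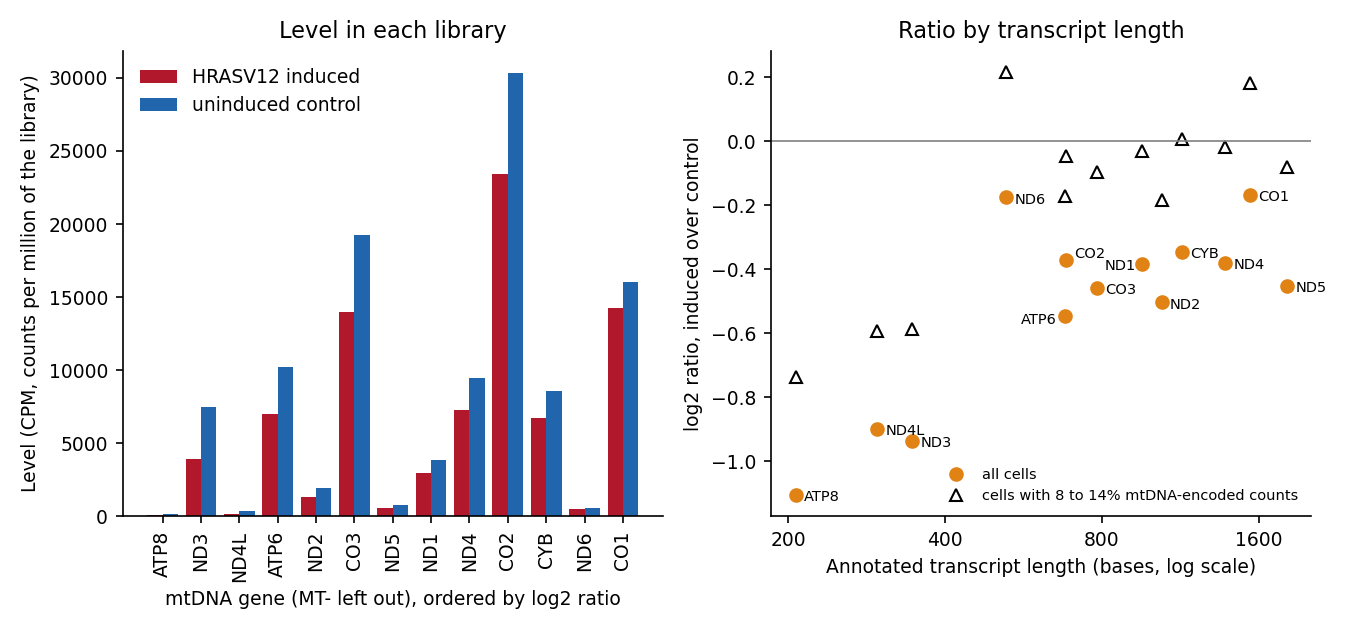
Left, level of each mitochondrially encoded member in the HRASV12 induced (red) and uninduced control (blue) library in CPM, not corrected for length, ordered by log2 ratio; right, log2 ratio against annotated transcript length for all cells (filled circles) and for cells with 8 to 14% of counts from these genes (open triangles). The 3 shortest genes, MT-ATP8, MT-ND4L and MT-ND3, lie at -0.90 or below in all cells, and the other 10 lie at -0.55 or above. Lengths are those of single genes, also where genes are known to sit on common transcripts.

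The lower level of the mitochondrially encoded genes was uneven in a way that went with annotated length. This is the length of each gene and not of its RNA, as MT-ATP8 and MT-ND4L are known to share transcripts with longer genes. Genes of such a pair still differed, with log2 ratios of -1.11 for MT-ATP8 and -0.55 for MT-ATP6. For MT-ND4L and MT-ND4 they were -0.90 and -0.38. Across the 13 genes Pearson's r of length and log2 ratio was 0.79 and Spearman's rho 0.61, as a description of 13 genes cut from shared precursors, but without the 3 shortest genes r was -0.01 and rho 0.15, so the relation rested on those 3. In all 17 alternative scalings, cell selections and settings tried, each of the 3 lay below each of the other 10. Scalings of whole libraries move all 13 genes alike, and other filters on gene level leave their values as they were. These alternatives could therefore not change the order, while those that thin, choose or weigh cells could have done so. GC content, which goes with length in these genes, gave r of 0.73 over the 13 and 0.05 without the 3. The part of length or GC content in the differences was not tested.

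The uneven make-up was also seen between cells with a like mitochondrial share. In cells with 8 to 14% of counts from these 13 genes, a range chosen after seeing the data, the log2 ratio was -0.74 for MT-ATP8 and -0.59 for both MT-ND4L and MT-ND3, against 0.18 for MT-CO1 and 0.22 for MT-ND6. The range bounds the total of the 13 in both libraries, which limits how far all of them can lie on the same side of 0. In cells of this range thinned to 53000 counts, MT-ND3 made up a median 4.70% of a cell's mitochondrially encoded counts in 311 induced cells and 6.85% in 597 control cells. Of these induced cells 95.5% (92.6 to 97.5) had less than the control median. For MT-CO1 the medians were 17.2% in induced and 14.8% in control cells, and 18.0% of induced cells (13.9 to 22.7) had less than the control median. For MT-ATP8 and MT-ND4L 82.3% and 85.5% of induced cells lay below it. The shift in these 3 short genes thus ran through most induced cells of this range.

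**Figure D3:**
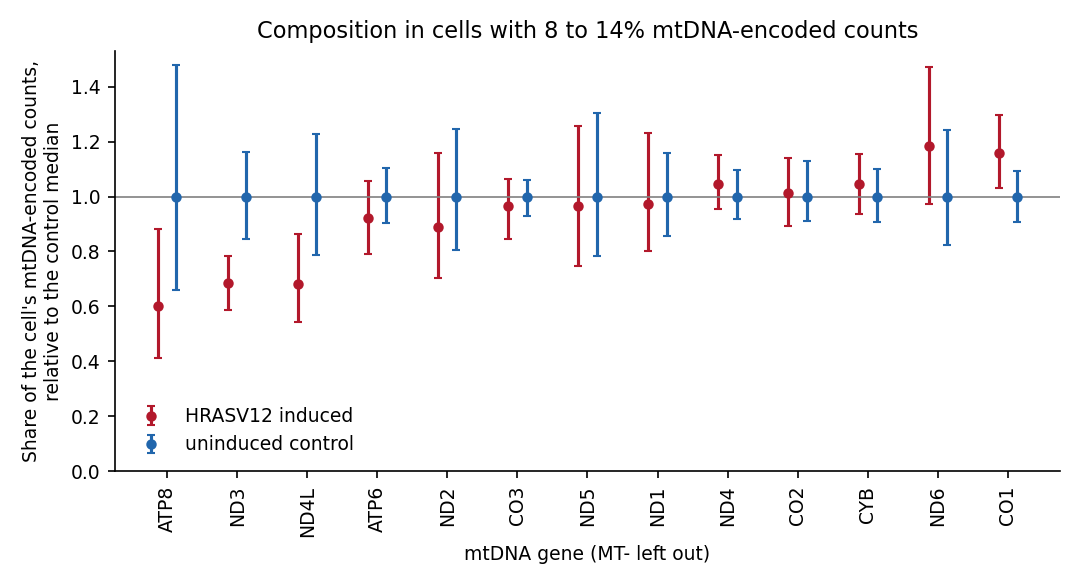
Share of each mitochondrially encoded member in a cell's counts from these 13 genes, divided by the control median, in thinned cells with 8 to 14% of counts from them; points are medians over 311 HRASV12 induced (red) and 597 uninduced control (blue) cells and bars run from the 25th to the 75th percentile. The induced medians of MT-ATP8, MT-ND3 and MT-ND4L lie below the control 25th percentile, and that of MT-CO1 lies above the control 75th.

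Other RNAs of the mitochondrial genome were lower in sum as well. The ribosomal RNAs MT-RNR1 and MT-RNR2 had log2 ratios of -0.46 and -0.42, near the median of the protein-coding members. The 22 transfer RNA genes summed to 881 CPM in induced and 1048 CPM in control cells. The 14 on the plus strand of the reference summed to 70.5 CPM in induced and 130 CPM in control cells, and the 8 on the minus strand to 810 CPM in induced and 919 CPM in control cells. These RNAs are short or carry little poly(A), which the library chemistry captures, so the counts are a poor measure of their amounts.

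The lower mitochondrial share was not spread evenly over induced cells. With every cell thinned to 53000 counts, which left 562 induced and 766 control cells, the median share of mitochondrially encoded members was 9.23% of a cell's counts in induced and 10.9% in control cells, and without thinning it was 9.31% in induced and 11.2% in control cells. The 5th percentile was 1.54% in induced and 7.16% in control cells, while the 95th was 15.5% in induced and 15.1% in control cells. In the induced library 28.3% of cells (24.6 to 32.2) fell under the control 5th percentile and 68.0% (63.9 to 71.8) under the control median. Cells under 4% numbered 90 of 666 in the induced library (13.5%) and 7 of 956 in the control library (0.732%). Those 90 cells held 19.0% of the induced library's counts, and without cells under 4% the mitochondrially encoded members took 9.84% of counts in induced and 11.0% in control cells. The highest mitochondrial percent that the authors give for any cell was 19.97, so cells above it are not analysed here.

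By complex, the median share of a cell's counts from mitochondrially encoded members was 1.86% in induced and 2.44% in control cells for complex I and 0.760% in induced and 1.04% in control cells for complex V. It was 0.752% in induced and 0.852% in control cells for complex III, and for complex IV the medians were 5.80% in induced and 6.62% in control cells. All 4 complexes were thus lower at the median, as they were in the summed libraries.

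The nuclear-encoded share was spread more widely over induced cells, with a slightly lower median. Its median was 3.40% of a cell's counts in induced and 3.53% in control cells. Of the induced cells 56.9% (52.7 to 61.1) lay below the control median, 19.8% (16.5 to 23.3) fell under the control 5th percentile, and 14.8% (11.9 to 18.0) were above the control 95th. As a share of counts outside the mitochondrial genome, 58.7% (54.5 to 62.8) lay below the control median and 10.3% (7.93 to 13.1) above the 95th percentile. By complex, the nuclear-encoded medians were 0.992% in induced and 1.04% in control cells for complex I, 0.358% in induced and 0.396% in control cells for complex III, 1.04% in induced and 1.06% in control cells for complex IV, and 1.01% in induced and 1.05% in control cells for complex V. The higher total of the nuclear-encoded members in the summed induced library thus stood beside a lower median per cell, and cells with many counts weighed more in the sum.

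**Figure D4:**
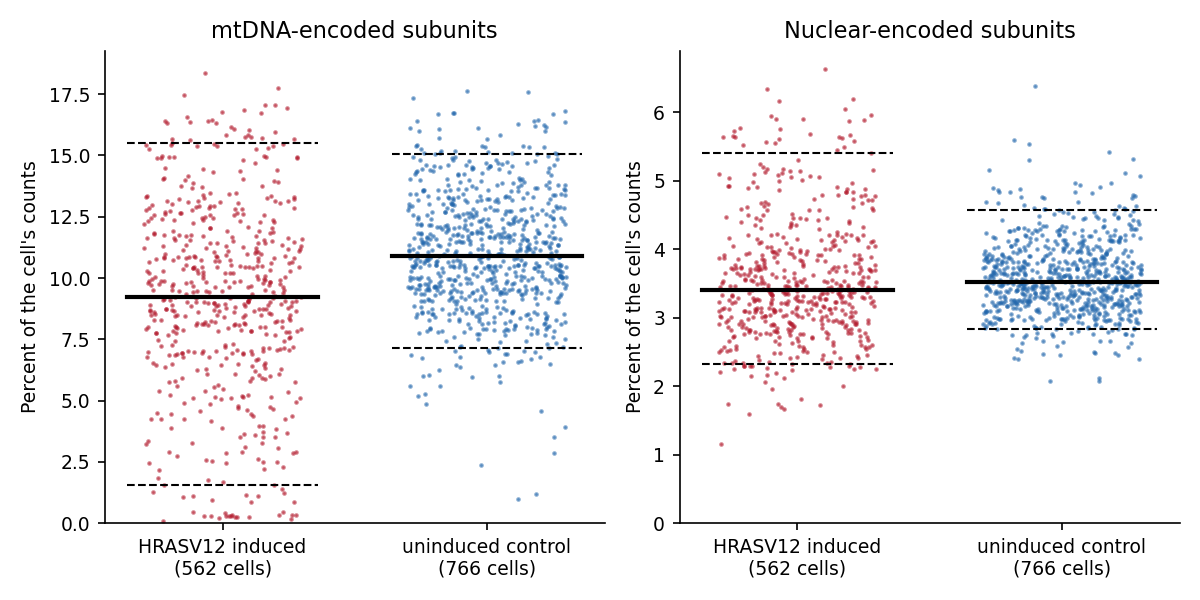
Percent of each cell's counts from mitochondrially encoded (left) and nuclear-encoded (right) members, in 562 HRASV12 induced and 766 uninduced control cells thinned to 53000 counts; solid lines are medians and dashed lines the 5th and 95th percentiles. The induced cells reach down to 1.54% at the 5th percentile of the mitochondrially encoded share, against 7.16% in control cells, and their nuclear-encoded shares spread to both sides.

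The shares of both genomes were next set against each other across cells. Because a high mitochondrial share lowers every other share, the nuclear-encoded share is given here as a percent of counts outside the mitochondrial genome. Spearman's rho of the mitochondrially encoded share and this nuclear-encoded share was -0.35 over 562 induced cells and -0.02 over 766 control cells, a description over cells that share a library. In induced cells with under 4% mitochondrially encoded counts the median nuclear-encoded share was 5.21%, against 3.87% in those with 8 to 10% and 3.63% in those with 14 to 20%. In control cells it was 4.01% with 8 to 10% and 4.13% with 14 to 20%, and 3.73% in the 6 control cells under 4%. With cells below the control 5th percentile of the authors' mitochondrial percent left out, rho was -0.12 over 400 induced cells. A narrower range can weaken a correlation by itself, so this value does not show which cells the relation came from.

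The 90 induced cells with under 4% were set against the 361 induced cells with 8 to 14%, per count outside the mitochondrial genome. Of 74 nuclear-encoded members 67 were higher in the cells under 4%, with a median log2 ratio of 0.44, beside a median of -0.43 over 9230 genes at 10 CPM or more in either set of cells. By at least 1.5-fold 15 members (20.3%) were higher, against 4.41% of all these genes, and 1 (1.35%) was lower, against 40.8%. UQCRQ, a small subunit of complex III, stood at 1440 CPM in the cells under 4% and 773 CPM in those with 8 to 14%. NDUFB9 stood at 1050 CPM in the cells under 4% and 594 CPM in those with 8 to 14%. Of the 7 members that were lower, NDUFS1 stood at 63.8 CPM in the cells under 4% and 127 CPM in those with 8 to 14%, and ATP5F1A at 215 CPM in the cells under 4% and 304 CPM in those with 8 to 14%. Ribosomal protein genes had a median of 0.31 in the same comparison. The cells under 4% differed in other ways too, with a median MALAT1 of 321 CPM and a median total of 136951 counts. These medians were 2707 CPM and 118797 counts in induced cells with 8 to 10%. They were 2677 CPM and 99620 counts in induced cells with 10 to 12%, and 3361 CPM and 84824.5 counts in those with 12 to 14%. The part of MALAT1 and of total counts in the result was not tested.

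MALAT1, an abundant RNA kept in the nucleus, went with the nuclear-encoded share in both libraries. Spearman's rho was -0.67 over 562 induced and -0.60 over 766 control cells. In the 25% of cells with the least MALAT1 the median nuclear-encoded share of counts outside the mitochondrial genome was 4.62% in induced and 4.57% in control cells. In the 25% with the most it was 3.21% in induced and 3.73% in control cells. The median mitochondrially encoded share was 7.27% in induced and 10.4% in control cells with the least MALAT1, and 10.4% in induced and 11.1% in control cells with the most. These groups were set within each library and held unlike levels, with median MALAT1 of 113 CPM in the lowest 25% of induced and 566 CPM in that of control cells.

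**Figure D5:**
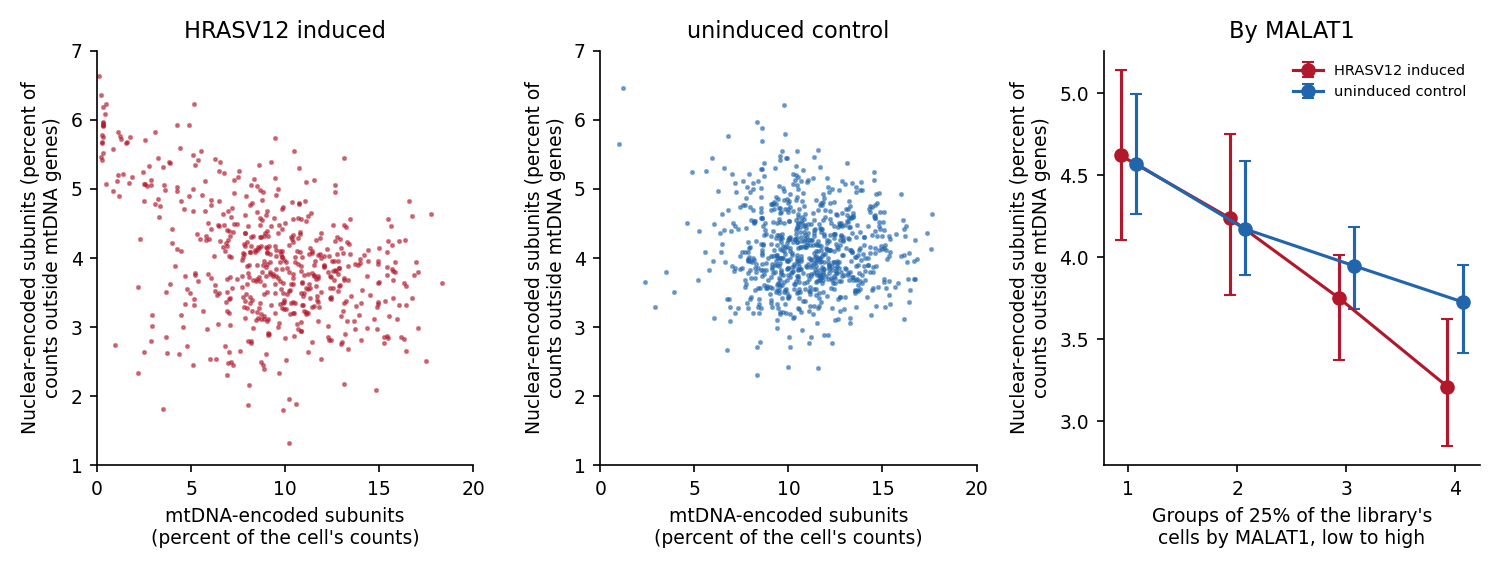
Nuclear-encoded share of counts outside the mitochondrial genome against the mitochondrially encoded share of all counts, for thinned HRASV12 induced (left, red) and uninduced control cells (middle, blue), and by groups of 25% of cells by MALAT1 within each library (right, medians with bars from the 25th to the 75th percentile). Induced cells under 4% on the horizontal axis have a median of 5.21% on the vertical axis, and the medians are lower with more MALAT1 in both libraries.

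Within a genome, complexes went together across cells. Spearman's rho of the shares of nuclear-encoded complex I and complex IV members was 0.87 over induced and 0.70 over control cells. For the mitochondrially encoded members of these complexes it was 0.84 over induced and 0.64 over control cells. The shares set against each other have the same denominator.

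The libraries also differed in cell cycle, with S phase genes lower by at least 1.5-fold in 32 of 39 and G2 and M phase genes in 44 of 54. Phase scores of thinned cells placed 59.8% of induced and 17.8% of control cells in G1, by scores that free RNA can also reach. The mitochondrially encoded share was lower in induced cells within each phase. In G1 its median was 9.77% in 336 induced and 12.4% in 136 control cells. In S phase the median was 10.4% in 54 induced and 11.0% in 203 control cells. In G2 and M phase it was 8.35% in 172 induced and 10.5% in 427 control cells. With counts summed over all 420 induced and 235 control cells scored as G1, the median log2 ratio of the 13 mitochondrially encoded members was -0.67. Over all measured genes it was 0.017 in the same cells. Of the 13, 8 were at least 1.5-fold lower, and the share of all genes past that size in G1 cells is not given here. The median nuclear-encoded share of counts outside the mitochondrial genome was 3.94% in induced and 4.29% in control G1 cells. It was 3.88% in induced and 4.04% in control S phase cells, and 3.83% in induced and 4.02% in control cells of G2 and M phase.

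NDUFA4L2 was the nuclear-encoded member that passed 1.5-fold. It encodes a hypoxia-induced paralog of the complex IV subunit NDUFA4. It had 378 counts in induced and 1819 in control cells, a log2 ratio of -1.82, and since it reached 10 CPM through the control library alone, it had to differ to be a member at these counts. Its control counts were concentrated, with 95.3% in the 96 cells with the most. They went with CARTPT, a neuropeptide precursor gene, in a split chosen after seeing the data. In cells with at least 3 CARTPT counts NDUFA4L2 stood at 38.4 CPM in 5 induced and 213 CPM in 56 control cells, and these 56 held 1318 of the 1819 control counts. In cells with no CARTPT count it stood at 3.63 CPM (3.19 to 4.10) in 616 induced and 3.36 CPM (2.95 to 3.82) in 749 control cells, values whose intervals overlap. NDUFA4 itself stood at 2276 CPM in induced and 2070 CPM in control cells.

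Tissue-specific isoforms of complex IV were low. COX4I2, the lung and hypoxia form of COX4I1, had 24 counts in induced and 119 in control cells, under the 10 CPM floor. COX4I1 stood at 787 CPM in induced and 727 CPM in control cells. COX6B2, the testis form of COX6B1, stood at 2.23 CPM in induced and 2.89 CPM in control cells, and COX8C, a testis form of COX8A, had 60 counts in induced and 48 in control cells. COX6B1 itself stood at 848 CPM in induced and 784 CPM in control cells.

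Lists of other genes for respiration, chosen with earlier results of these data known, had medians between -0.28 and 0.14 on the log2 scale. Complex II had a median log2 ratio of -0.13 over 4 genes, with 0 past 1.5-fold. Its flavin subunit SDHA was lowest, at 51.3 CPM in induced and 64.6 CPM in control cells, and its membrane anchor SDHC highest, at 175 CPM in induced and 169 CPM in control cells. Cytochrome c with ubiquinone synthesis had -0.02 over 13 genes, with 1 higher and 1 lower by 1.5-fold (7.69% each), against 10.3% higher and 7.73% lower among all 9017 genes. The higher one was COQ10B, a ubiquinone-binding protein, with 4055 counts in induced and 2861 in control cells, a log2 ratio of 0.73. The lower one was COQ8A, an atypical kinase that acts in ubiquinone synthesis, at 12.5 CPM in induced and 19.6 CPM in control cells.

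Assembly factors of complex I had a median of 0.14 over 16 genes, with 0 past 1.5-fold. NDUFAF3 was highest, at 167 CPM in induced and 122 CPM in control cells, and ACAD9, an acyl-CoA dehydrogenase that also acts in assembly, was lowest, at 17.0 CPM in induced and 25.7 CPM in control cells. Assembly factors of complexes III, IV and V had -0.07 over 34, with 1 higher and 1 lower by 1.5-fold (2.94% each). The copper chaperone COX17 was 1.5-fold lower, at 244 CPM in induced and 378 CPM in control cells. COX20, which acts in assembly around MT-CO2, was 1.5-fold higher, at 195 CPM in induced and 128 CPM in control cells.

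For the machinery that makes mitochondrial RNA and protein, medians were slightly below 0. The mitochondrial ribosome had a median of -0.06 over 72 genes, with 0 higher and 1 lower by 1.5-fold (1.39%, against 7.73% of all 9017 genes). That 1 was MRPL11, at 129 CPM in induced and 226 CPM in control cells, and MRPL55 was highest, at 156 CPM in induced and 114 CPM in control cells. Transcription, RNA processing and upkeep of mitochondrial DNA had -0.14 over 25 genes, with 0 higher and 2 lower (8.0%), a share near the 7.73% of all genes. These 2 were TFAM, which packages mitochondrial DNA and starts its transcription, at 51.5 CPM in induced and 84.8 CPM in control cells, and the topoisomerase TOP1MT at 12.7 CPM in induced and 22.2 CPM in control cells. FASTK was highest in this list, at 57.5 CPM in induced and 46.6 CPM in control cells. LRPPRC, which stabilises mitochondrial messenger RNA, stood at 114 CPM in induced and 162 CPM in control cells, while the polymerase POLRMT was near level at 13.5 CPM in induced and 14.2 CPM in control cells.

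In the remaining lists 0 genes passed 1.5-fold. Regulators of respiratory genes had a median of -0.28 over 10 genes. Their lowest was the coactivator PPRC1, at 20.7 CPM in induced and 30.6 CPM in control cells, and their highest the nuclear receptor ESRRA, at 13.6 CPM in induced and 11.0 CPM in control cells. The TCA cycle had -0.10 over 19. It ran down to PC, pyruvate carboxylase, at 10.9 CPM in induced and 15.9 CPM in control cells, and up to MDH2, malate dehydrogenase, at 503 CPM in induced and 441 CPM in control cells. Import and inner membrane organisation had -0.12 over 33. Its lowest was the import receptor TOMM70, at 46.2 CPM in induced and 58.1 CPM in control cells, and its highest TIMM9, a chaperone between the membranes, at 89.1 CPM in induced and 73.6 CPM in control cells.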

How the data were processed

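Droplet libraries (10x Genomics Chromium, 3' chemistry) of polyA RNA came from 1 culture with and 1 without doxycycline, per the labels. Counting used kallisto and bustools, per the submitters' processing notes; their versions, the build and the annotation are not stated there. The deposited counts are whole numbers of molecules for 36027 genes and 1622 cells. The authors' annotation of cells gives the library and the percent of mitochondrial counts, per the file headers, and calls every cell a singlet; the filters behind this are not stated. Counts were summed per library and divided by its total to give CPM. Intervals at 95% are exact Poisson for sums, exact conditional for ratios and Clopper-Pearson for shares of cells. A count of 0 allows at most 3 counts, or 0.0373 CPM in induced and 0.0315 CPM in control cells. Counts of molecules from 1 library give no error between cultures.

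Members and lists were chosen with earlier results of these data known. NDUFA4 and NDUFA4L2 were counted with complex IV. Named were all mitochondrially encoded members, the 2 highest, the 2 lowest and the most abundant nuclear-encoded member of each complex, isoform pairs, and the extremes of each other mitochondrial list; NDUFV2, NDUFS6, NDUFC2, NDUFA6-DT, UQCRC1, UQCRC2, UQCRFS1, COX5A, COX7B, TFAM, LRPPRC, POLRMT and CARTPT were named outside this rule, in part after their values were seen. Values of 1 marker gene are not reported here. Symbols came from the authors' table. GENCODE 29 held 25 of the 87 versioned gene IDs, so its coordinates and lengths may differ from the authors' annotation. Values per cell were taken after random thinning to 53000 counts, which left out 104 induced and 190 control cells, and phases were scored with scanpy 1.11.5. Scaling factors of edgeR 4.0.16 and DESeq2 1.42.0 served as alternatives and in no test. The ratio calculation was tested on simulated data. Alternatives were other scalings, pseudocounts of 0.1 and 5 CPM, other filters, thinning, and leaving out cells; the range of 8 to 14%, the complex of NDUFA4, leaving out NDUFA4L2 and leaving out cells with CARTPT were chosen after seeing the data.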

Additional observations from a re-analysis of the deposited data

How the results depend on the processing

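No paired analysis was possible because the labels give no replicate numbers and each group is 1 library. Among 17 alternatives, other pseudocounts and other filters on gene level could not change the sign of a mitochondrially encoded log2 ratio. Of the 17, 15 left all 13 of these log2 ratios below 0. The exceptions choose cells by these same genes: at or above the control 5th percentile of the mitochondrial percent, 9 of 13 were below 0, the median was -0.060, the difference of the mitochondrially minus nuclear-encoded medians was 0.060 and 1 member was 1.5-fold lower, and in the 8 to 14% range 10 were below 0, the median was -0.081 and the difference 0.032. The median was -0.33 with thinning, -0.33 without the 5% of cells with the most counts and -0.33 in cells without a CARTPT count, where the differences of medians were -0.29, -0.30 and -0.31. That difference was -0.33 with the mean of per-cell CPM and -0.35 at or above the control 5th percentile of MALAT1. At least 1.5-fold lower were 5 with totals without mitochondrially encoded and ribosomal protein genes and 8 in G1 cells. Shares of all genes past 1.5-fold under the alternatives are not given here.

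The nuclear-encoded median of 0.04 has no stable sign. It was -0.013 with totals without mitochondrially encoded genes, -0.055 without ribosomal protein genes too, -0.028 with the mean of per-cell CPM, -0.034 with thinning, -0.031 without the 5% of cells with the most counts, -0.021 without CARTPT cells, -0.12 with the limit on mitochondrial percent and -0.11 in the 8 to 14% range. For complex I it was -0.047 with totals without mitochondrially encoded and ribosomal protein genes, -0.041 with the mean of per-cell CPM, -0.027 with thinning, -0.037 without the 5% of cells with the most counts, -0.029 without CARTPT cells, -0.10 with the limit on mitochondrial percent and -0.10 in the 8 to 14% range. In the last 2 settings it was -0.12 and -0.11 for complex IV and -0.19 and -0.17 for complex V, which was -0.066 with totals without mitochondrially encoded and ribosomal protein genes. Nuclear-encoded members at least 1.5-fold lower numbered 0 without CARTPT cells, where NDUFA4L2 was at 0.084, 0 at 50 CPM or more and 3 with no filter beyond 1 count, and 2 were higher in G1 cells. The cause was not tested.

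Per cell, with cells at or above the control 5th percentile of MALAT1, the induced median was 9.75% for mitochondrially and 3.27% for nuclear-encoded members, and 23.7% of induced cells lay below the control 5th percentile for each. In G1 cells the mitochondrially encoded medians were 9.77% in induced and 12.4% in control cells, and 33.6% and 15.8% of induced cells lay below the control 5th percentile for mitochondrially and nuclear-encoded members. The control mitochondrially encoded median was 11.2% without thinning and 11.2% at 30000 counts. As a share of counts outside the mitochondrial genome the nuclear-encoded medians were 3.89% in induced and 4.07% in control cells, and rho with the mitochondrially encoded share was -0.35 in induced and -0.016 in control cells. With the share of all counts rho was -0.49 in induced and -0.22 in control cells. With the limit on mitochondrial percent this rho was -0.28 in induced cells.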
